A study of Mus musculus with 14 samples.

Results

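The genes that encode the chains of the collagens were followed in RNA-sequencing libraries of Ocy454 cells, a mouse osteocyte-like cell line. Members were taken by symbol: Col, a type number, the letter a and a chain number. This gave 44 of the 39179 genes listed for the differentiation experiment, and all 44 gene identifiers were found among the 35886 genes of the sorted libraries. They fell into 11 fibrillar chains, 9 FACIT chains (fibril-associated collagens with interrupted triple helices), 9 network-forming chains, 6 chains of the beaded filament collagen VI, 4 transmembrane chains and 5 chains outside these 5 classes.

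Ocy454 cells carry a thermosensitive large T antigen, divide at 33 °C and differentiate once moved to 37 °C. No group carried a further genetic change or treatment. The differentiation experiment compared day 1, day 7, day 10 and day 14 at 37 °C, with 2 libraries a day. The sorting experiment compared live cells stained for CD61, the integrin beta-3 subunit, after 17 days of differentiation, with 3 libraries of the 10% with the least signal (CD61 low) and 3 of the 10% with the most (CD61 high). All 14 libraries came from 1 immortalized line. The study's methods describe the days as biologic duplicates and the sort as coming from 3 independent groups of cells, and do not say whether same-numbered CD61 low and CD61 high libraries came from the same group. RNA was extracted with different kits and quantified with different software in the 2 experiments, so levels were compared only within each.

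Collagen chains are wound in threes into a triple helix. Fibrillar chains build the load-bearing fibrils of bone, cartilage, skin and tendon, with type I as the main protein of bone matrix and types V and XI inside the fibril. FACIT chains sit on fibril surfaces, type IV and type VIII chains form sheets, type VI forms microfilaments around cells, and transmembrane collagens stay anchored in the plasma membrane. Osteoblasts lay down the matrix that comes to surround them as they turn into osteocytes.

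Promoter sequence is shown for the 7 members called in both of the main comparisons, since these are the chains whose direction of change could be set side by side. Of the 44 members, 35 had an entry in a RefSeq promoter table of build GRCm38.p6. The 150 bases from 210 to 61 bases before the RefSeq start are printed on the gene's strand, and the whole table entry was matched exactly to GRCm39 to give the positions. Capitals mark matches to any of 6 motifs searched on both strands, which were TATAAA for the TATA box, CCAAT for the box of that name, GGGCGG for the GC box, TGTGGT for the Runx core, TGANTCA for AP-1 and ACGTG for an E-box type core.
Col11a2, chr17:34257902-34258051, plus strand: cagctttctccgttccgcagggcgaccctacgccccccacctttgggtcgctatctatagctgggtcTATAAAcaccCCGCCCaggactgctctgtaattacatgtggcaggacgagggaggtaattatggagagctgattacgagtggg
Col24a1, chr3:144998023-144998172, plus strand: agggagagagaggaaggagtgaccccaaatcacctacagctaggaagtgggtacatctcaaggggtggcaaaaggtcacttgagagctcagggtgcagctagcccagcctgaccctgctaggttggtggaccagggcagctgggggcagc
Col13a1, chr10:61814948-61815097, minus strand: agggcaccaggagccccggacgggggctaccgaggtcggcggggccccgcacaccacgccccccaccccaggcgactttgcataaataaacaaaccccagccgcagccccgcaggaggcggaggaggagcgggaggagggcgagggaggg
Col3a1, chr1:45350488-45350637, plus strand: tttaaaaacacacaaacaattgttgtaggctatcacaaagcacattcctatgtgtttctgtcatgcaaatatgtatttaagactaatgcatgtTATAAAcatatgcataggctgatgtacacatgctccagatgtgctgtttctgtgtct
Col5a3, chr9:20726424-20726573, minus strand: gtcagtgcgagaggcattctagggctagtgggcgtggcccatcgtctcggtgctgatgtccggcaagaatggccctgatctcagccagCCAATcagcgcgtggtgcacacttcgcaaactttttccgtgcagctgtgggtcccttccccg
Col27a1, chr4:63133439-63133588, plus strand: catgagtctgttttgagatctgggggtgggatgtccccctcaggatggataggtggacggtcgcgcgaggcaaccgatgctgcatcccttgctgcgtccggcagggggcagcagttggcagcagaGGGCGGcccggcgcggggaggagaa
Col6a5, chr9:105837903-105838052, minus strand: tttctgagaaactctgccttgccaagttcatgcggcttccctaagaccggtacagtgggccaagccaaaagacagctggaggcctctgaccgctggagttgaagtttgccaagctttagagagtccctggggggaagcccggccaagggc

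GENCODE M39 placed no gene at 5 of these windows. The Col27a1 window lies in an intron of a longer Col27a1 transcript, and the Col13a1 window in an intron of the antisense gene Gm66986. TATAAA stood in the Col3a1 window, 117 to 112 bases before the start, and in the Col11a2 window, 143 to 138 bases before it. Of all 32851 promoters of the table, 6.72% held TATAAA in the same window, against 3 of the 35 members (8.57%). All promoters were counted by entry, but members by gene, with a match in any entry of the gene. The letters were not searched nearer to the start than 61 bases, and matches are to letters alone. CCAAT stood in the Col5a3 window and in 22.7% of all promoters, and GGGCGG on either strand in the Col11a2 and Col27a1 windows and in 20.9% of all promoters, against 13 of 35 members (37.1%). The Runx core, AP-1 and E-box type letters (8.66%, 4.13% and 9.94% of all promoters) were in none of the 7 windows, and no motif match overlapped another. Base composition differed widely among the 7, from 34.7% G and C in Col3a1 to 72.7% in Col13a1. The median was 57.7% over the members with an entry and 52.0% over all promoters.

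The libraries held 27518605 to 34311238 reads in the differentiation experiment and 18815602 to 19220064 estimated counts in the sort. Collagen genes took a large share of this depth. They held 8.25% ± 0.02 of reads (SD, n = 2) on day 1, 6.74% ± 0.12 on day 7, 5.92% ± 0.29 on day 10 and 6.78% ± 0.71 on day 14. In the sort they held 3.92% ± 0.33 of estimated counts (SD, n = 3) in CD61 low and 7.78% ± 0.31 in CD61 high cells. Without Col1a1 and Col1a2 these shares were 2.08% on day 1, 1.41% on day 14, 0.725% in CD61 low and 1.16% in CD61 high cells. Both the whole share and the share without type I were therefore lower on day 14 than on day 1, and both were higher in CD61 high cells. In bulk libraries fewer cells of a kind and less RNA per cell cannot be told apart.

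A gene counted as called when the adjusted p was below 0.01 and the log2 fold change (Log2FC) past 1 in either direction. Of the 44 members, 30 passed the filter of 1 CPM (reads scaled to a common library total) in at least 1 differentiation library, 27 passed the filter of 5 normalized counts in all 6 sorted libraries, and 14 passed neither. The 14 were Col9a2, Col14a1 and Col19a1 of the FACIT class, Col4a1, Col4a2, Col4a3, Col4a4, Col4a6 and Col10a1 of the network class, Col6a6, the transmembrane Col17a1 and Col25a1, and Col26a1 and Col28a1. Col10a1, the marker of hypertrophic cartilage, had 64 reads over the 8 differentiation libraries. Col4a1 and Col4a2, the chains of the common basement membrane network, had 124 and 113. Col19a1 and Col25a1 had 0 reads in all 8 libraries, which allows up to 0.0120 CPM (3 reads over the pooled libraries, counting error only). Col9a1, Col9a3 and Col6a4 passed only through the day on which they were high, Col9a1 and Col9a3 through a single library at 1.25 and 1.21 CPM.

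**Figure D1:**
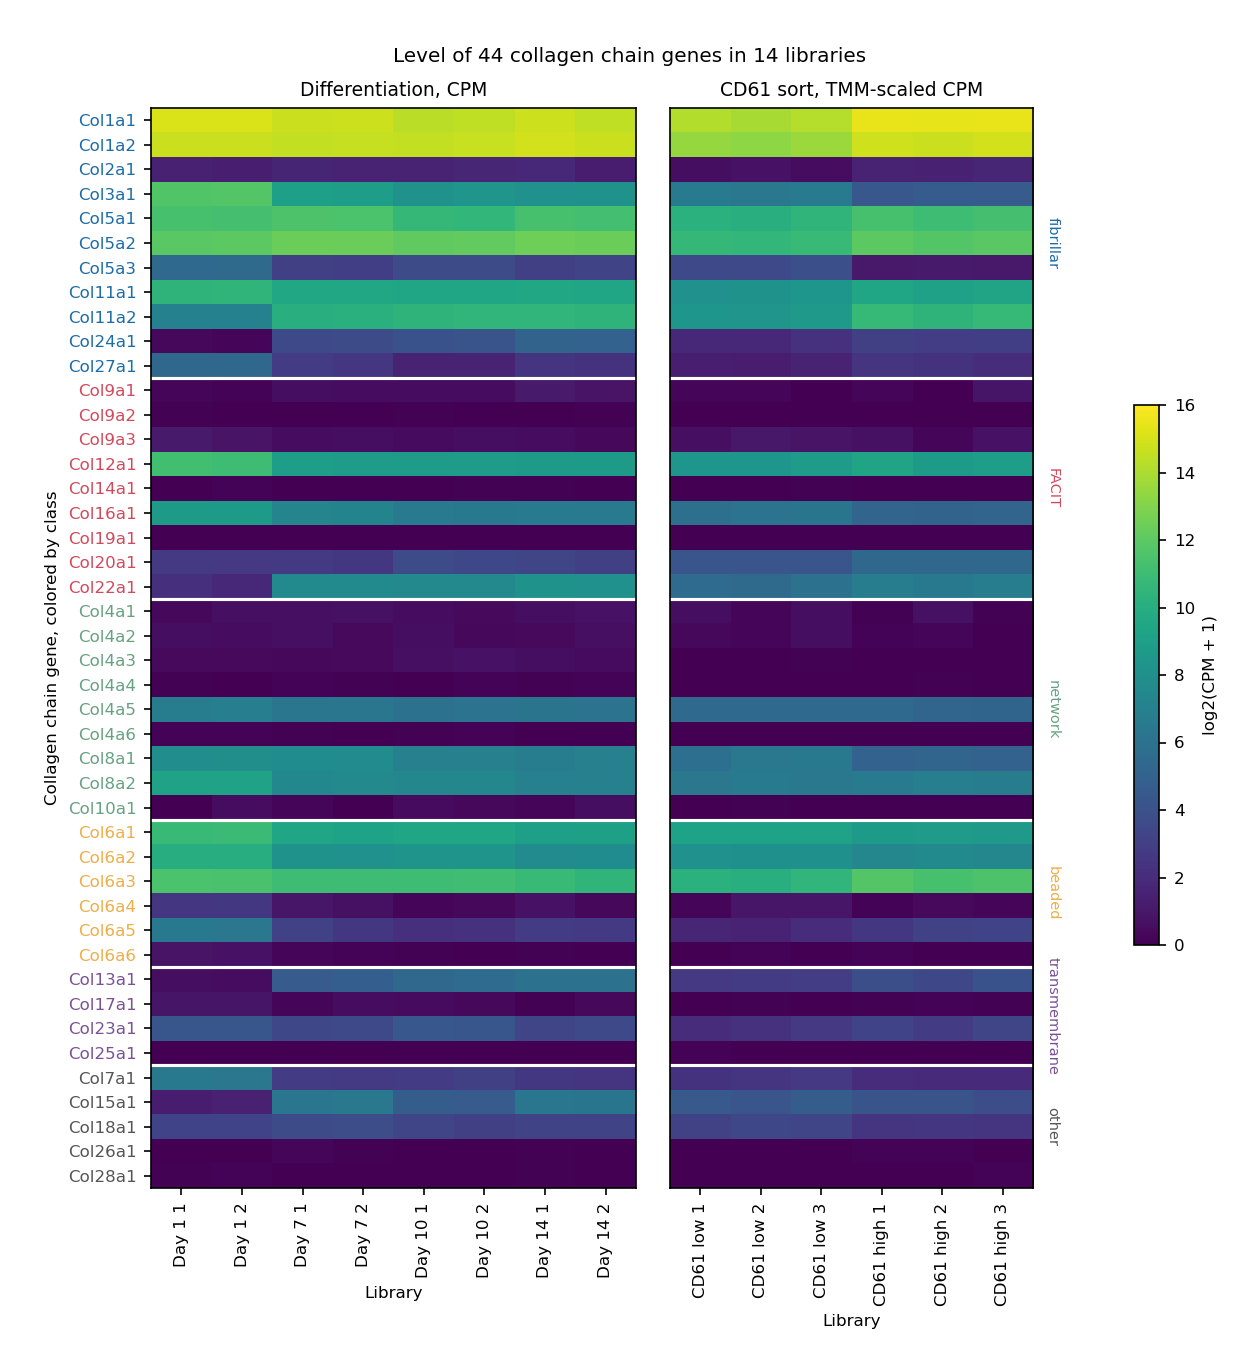
Levels of the 44 collagen chain genes, grouped by class, in the 8 differentiation libraries (CPM) and the 6 sorted libraries (CPM with trimmed-mean, TMM, scaling), as log2(CPM + 1) on a color scale from 0 to 16. Col1a1 and Col1a2 are the brightest rows in every library, Col3a1 darkens after day 1 and in CD61 high cells, and Col22a1, Col13a1, Col24a1 and Col15a1 go from near 0 on day 1 to higher levels at later days.

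Levels of different genes were compared per kilobase of transcript, with each gene's length averaged over its transcripts by their level in the sorted libraries. For 14 members with a mean below 0.2 TPM there, which made up at most 0.00492% of the collagen level in any differentiation library, the gene length of the authors' table was used. The level of 1 gene relative to another depends on this choice, whereas its change over days does not. On this scale type I made up 73.9% ± 0.02 (SD, n = 2) of the summed collagen level on day 1, 77.0% ± 0.56 on day 7, 78.1% ± 0.71 on day 10 and 78.8% ± 1.1 on day 14. The remainder changed its makeup. Type III, which forms thin fibrils in soft connective tissue, went from 4.72% on day 1 to 0.89% on day 7 and 0.486% ± 0.068 on day 14. Type VI went from 7.29% on day 1 to 3.21% ± 0.13 on day 14, and the FACIT type XII from 1.74% to 0.407% ± 0.036. Type V rose from 7.76% to 11.3% ± 0.58 and type XI from 1.83% to 3.87% ± 0.15 over the same days. For each of these 5 types the 2 day 14 libraries lay on one side of the 2 day 1 libraries, as they also did with the gene lengths of the authors' table, an alternative chosen after seeing the data, and an exact permutation test of 2 against 2 libraries cannot go below p = 0.333.

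In the sorted cells, by TPM (transcripts scaled for length and library total), type I made up 80.7% ± 0.80 (SD, n = 3) of the collagen level in CD61 low and 84.8% ± 0.44 in CD61 high cells. Type III was 0.310% ± 0.054 against 0.036% ± 0.014, type VI 5.86% ± 0.27 against 3.22% ± 0.37, and type XI 2.29% ± 0.23 against 3.60% ± 0.09. Type V, the one type here whose share differed in direction from its change over days, was 8.53% ± 0.13 in CD61 low and 7.24% ± 0.13 in CD61 high cells. None of these shares overlapped between groups, and an exact permutation test of 3 against 3 cannot go below p = 0.1. A share can be lower while the level is not, because the type I level was higher in CD61 high cells. The summed type V level was 1037, 956 and 1161 TPM in CD61 low and 1958, 1649 and 1848 in CD61 high libraries. For type VI it was 675, 669 and 826 against 969, 685 and 780 TPM, which overlapped.

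**Figure D2:**
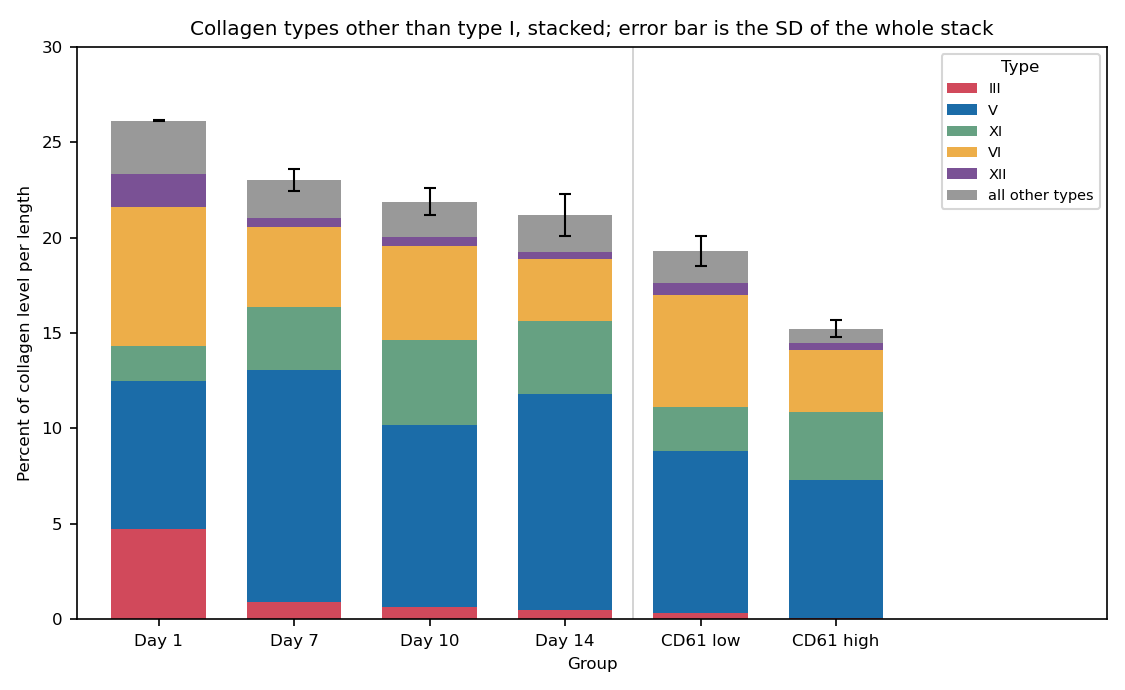
Percent of the summed collagen level per length taken by each type other than type I, as stacked group means, for 4 days (CPM per kilobase, n = 2) and 2 sorted groups (TPM, n = 3), with the SD of the whole stack. Type III and type VI shrink from day 1 to day 14 and from CD61 low to CD61 high, and type XI widens in both.

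Between day 1 and day 14, 5 of the 30 members tested were called higher and 11 lower by limma. Over all 12725 genes tested 7.51% were called higher, 5.9% lower and 13.4% in either direction. The median Log2FC of the tested members was -0.75, beside -0.03 for all genes. These numbers include Col9a1, Col9a3 and Col6a4, which passed through the day on which they were high. With the filter set on the mean of the 8 libraries instead (5 CPM), 26 members were tested, 5 were higher and 10 lower, and the median was -0.82, beside -0.04 for all genes. Of all 10313 genes tested with this filter, 709 were higher and 572 lower. By class, 2 fibrillar chains were higher and 3 lower of 11 (median -0.03). Among FACIT chains 1 was higher and 2 lower of 6 tested, among network chains 1 was lower of 3 (median -0.98), and among the type VI chains 4 were lower of 5, Col6a4 among them. Of the 2 transmembrane chains tested 1 was higher, and of the 3 tested chains outside these classes 1 was higher and 1 lower.

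The type I chains, the bulk of bone collagen, were not called. Col1a1 stood at 34732 and 34687 CPM on day 1, 27210 and 27895 on day 7, 20831 and 22521 on day 10, and 27852 and 22633 on day 14, so every later library was below both day 1 libraries, but the change to day 14 was under the size for a call (Log2FC -0.47, SE 0.09, adjusted p = 2.7e-05 by limma with Benjamini-Hochberg adjustment). Col1a2 stood at 26896 and 27163 CPM on day 1 and 30292 and 26562 on day 14, and these overlapped (Log2FC 0.07, SE 0.08, adjusted p = 0.44). The ratio of Col1a1 to Col1a2 per length therefore moved from 1.14 ± 0.009 on day 1 to 0.999 ± 0.015 on day 7, 0.783 ± 0.004 on day 10 and 0.788 ± 0.042 on day 14 (SD, n = 2). With the gene lengths of the authors' table the same ratio was 2.19 on day 1 and 1.51 on day 14, so the level of the ratio depends on the length used. In type I protein a pair of alpha 1 chains is usually wound with a single alpha 2 chain.

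Type III and type V chains split. Col3a1, the type III chain, stood at 3278 and 3375 CPM on day 1, 520 and 500 on day 7, 299.9 and 317 on day 10, and 272 and 287 on day 14. The fall was 11.9-fold with a Log2FC of -3.57 (SE 0.04, adjusted p = 2.9e-30, limma), and most of it was present by day 7 (Log2FC -2.70). Col5a2, next to Col3a1 on chromosome 1 and pointing toward it across a gap of 16713 bases, went from 3902 and 4003 CPM to 5673 and 5408 and was not called (Log2FC 0.49, SE 0.05). Col5a1, its partner in type V fibrils, stood at 2546 and 2501 CPM on day 1 and 2620 and 2343 on day 14 but at 1606 and 1525 on day 10, below every other library (day 10 against day 7, Log2FC -0.89, SE 0.05, adjusted p = 2.6e-14, limma). The ratio of Col5a1 to Col5a2 per length thus went from 0.916 ± 0.028 on day 1 to 0.503 ± 0.032 on day 10 and 0.642 ± 0.029 on day 14. Col5a3, the rarest type V chain, stood at 42.7 and 44.5 CPM on day 1 and 7.20 and 8.65 on day 14, after 7.23 and 6.97 on day 7 and 12.4 in both day 10 libraries (day 14 against day 1, Log2FC -2.33, SE 0.09, adjusted p = 2.7e-18, limma).

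The type XI chains, which share the fibril core with type V, moved in opposite directions. Col11a2 stood at 129 and 128 CPM on day 1, 1097 and 1140 on day 7, 1384 and 1493 on day 10, and 1468 and 1355 on day 14, an 11-fold rise (Log2FC 3.45, SE 0.04, adjusted p = 2.8e-29, limma). Col11a1 stood at 1375 and 1390 CPM on day 1 and 786 and 693 on day 14, and every library from day 7 on was below both day 1 libraries (Log2FC -0.90, SE 0.04, adjusted p = 4.5e-16), short of the size for a call. Per length, Col11a2 went from 0.129 ± 0.002 of the Col11a1 level on day 1 to 2.09 ± 0.07 times that level on day 7 and 2.67 ± 0.09 on day 14. With the gene lengths of the authors' table these ratios were 0.122 on day 1, 1.96 on day 7 and 2.50 on day 14, so with either length Col11a2 was below Col11a1 on day 1 and above it on days 7, 10 and 14.

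**Figure D3:**
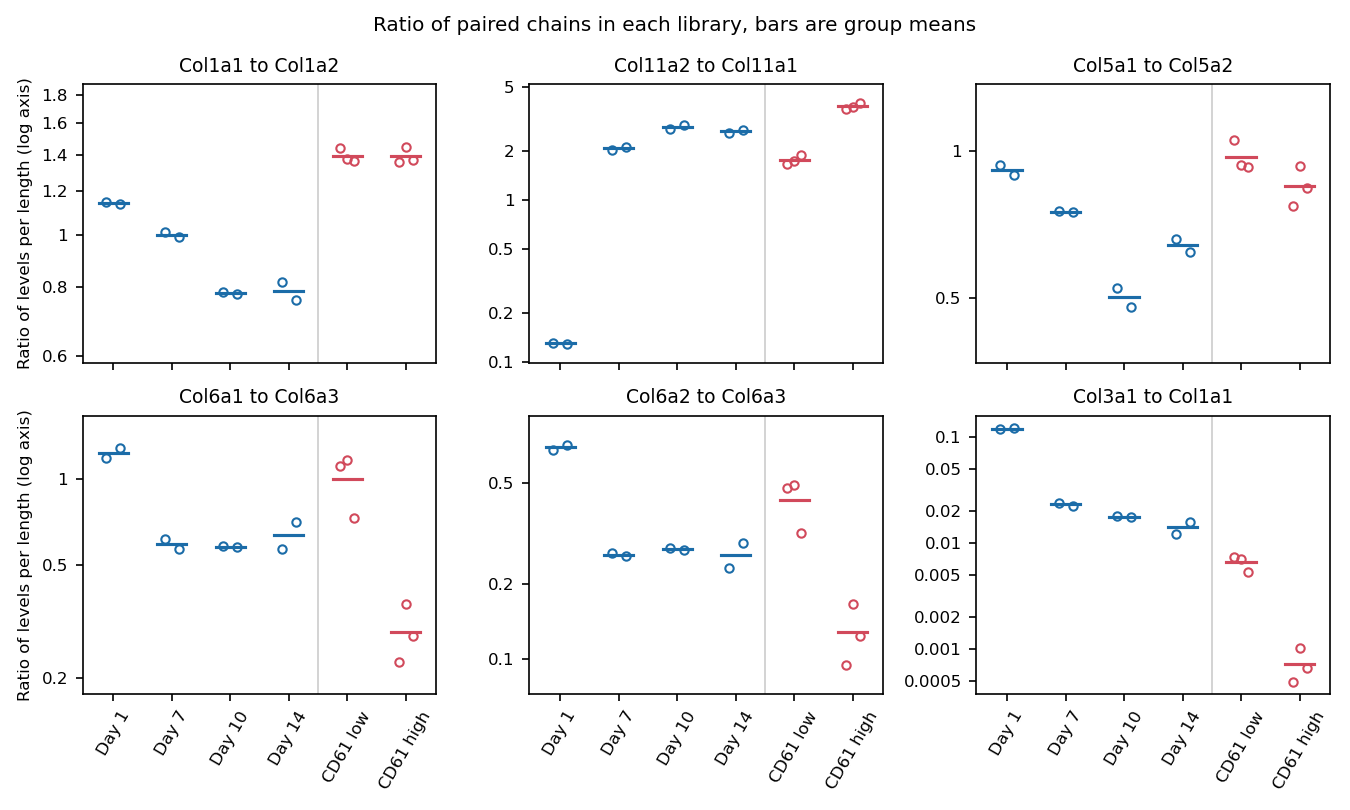
Ratio of the levels per length of paired chains in each library (circles, log axis) with group means (bars), for the 4 days (n = 2) and the sorted groups (n = 3), which were quantified separately and are split by a line. Col11a2 to Col11a1 crosses 1 between day 1 and day 7, and Col6a1 to Col6a3 is lower in all CD61 high libraries (0.228 to 0.364) than in all CD61 low libraries (0.730 to 1.17).

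Among the minor fibrillar chains, Col24a1, a chain known from developing bone, stood at 0.266 and 0.157 CPM on day 1 (9 and 5 reads), 10.6 and 12.1 on day 7, 15.2 and 17.0 on day 10, and 33.8 and 31.7 on day 14. Each day lay above the one before. The CPM ratio of day 14 to day 1 was 155, and the Log2FC, which understates changes from such low levels because 1 CPM is added before the log, was 4.80 (SE 0.10, adjusted p = 6e-24, limma). Col27a1, a chain of cartilage and developing tissues, went the other way, from 40.5 and 39.5 CPM to 5.82 and 4.68 on day 7, 1.87 in both day 10 libraries and 4.55 and 4.03 on day 14 (Log2FC -2.96, SE 0.11, adjusted p = 1.2e-18). Col2a1, the main cartilage collagen, stayed between 1.31 and 2.48 CPM in all 8 libraries (day 14 against day 1, Log2FC 0.08, SE 0.16, adjusted p = 0.66).

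Of the FACIT chains, Col22a1, known from tissue junctions, had the highest Log2FC of the family on this scale, although the CPM ratio of day 14 to day 1, 96.4, was below those of Col24a1 (155) and Col13a1 (132). It stood at 3.54 and 2.42 CPM on day 1, 193 and 195 on day 7, 182.4 and 181 on day 10, and 302 and 272 on day 14 (Log2FC 6.19, SE 0.08, adjusted p = 2.8e-29, limma). Col12a1, a FACIT of dense connective tissue and bone, went from 2242 and 2130 CPM to 422 and 414 (Log2FC -2.38, SE 0.04). Col16a1 went from 423 and 412 to 97.2 and 95.7 CPM (Log2FC -2.10, SE 0.04), and both had lower values in every library after day 1. Col20a1 was between 5.03 and 11.4 CPM in all libraries and was not called, and Col9a1 and Col9a3 were at or below 1.25 CPM.

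Of the network chains, Col8a2 went from 605 and 588 CPM on day 1 to 178 and 181 on day 7 and 124 in both day 14 libraries (Log2FC -2.26, SE 0.04, adjusted p = 1e-26, limma). Its type VIII partner Col8a1 kept 217 and 210 CPM on day 7 beside 229 and 235 on day 1, and then stood at 127 and 126 on day 10 and 111 and 124 on day 14 (Log2FC -0.98, SE 0.04), just short of the size for a call. The ratio of Col8a1 to Col8a2 per length was 0.326 ± 0.012 on day 1, 0.996 ± 0.038 on day 7 and 0.793 ± 0.067 on day 14. Col4a5, the sole type IV chain that passed the filter, went from 111 and 112 to 70.8 and 67.8 CPM (Log2FC -0.68, SE 0.04). Its neighbor on the X chromosome, Col4a6, had 16 reads in the 8 libraries.

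The 3 classical chains of type VI did not fall alike. Col6a1 went from 1801 and 1879 CPM to 529 and 543 (Log2FC -1.78, SE 0.04), and Col6a2 from 1003 and 1014 to 209 and 216 (Log2FC -2.24, SE 0.04, adjusted p = 8.7e-27, limma). Col6a3, the chain that carries the long globular extensions, went from 2817 and 2708 to 1727 and 1424 CPM, which was not a call (Log2FC -0.82, SE 0.06). Per length, Col6a1 was 1.24 ± 0.07 times Col6a3 on day 1 and 0.637 ± 0.099 times on day 14, or 1.83 and 0.942 times with the gene lengths of the authors' table. The alternative chains had their highest values on day 1. Col6a5 stood at 87.7 and 81.0 CPM on day 1, 7.92 and 5.14 on day 7, 3.55 and 3.96 on day 10, and 5.86 and 5.67 on day 14 (Log2FC -3.66, SE 0.12), and Col6a4 at 4.72 and 4.92 on day 1 and 0.699 and 0.254 on day 14 (Log2FC -1.996, SE 0.16).

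Among the transmembrane chains, Col13a1, which sits at cell adhesion sites, rose through the course. It stood at 0.531 and 0.439 CPM on day 1 (18 and 14 reads), 23.0 and 26.6 on day 7, 39.3 and 47.3 on day 10, and 65.3 and 62.6 on day 14 (Log2FC 5.45, SE 0.09, adjusted p = 2e-26, limma). Col23a1 had 18.4 and 18.1 CPM on day 1, 10.2 and 10.4 on day 7, 18.9 and 18.6 on day 10, and 8.95 and 10.8 on day 14. Its day 1 and day 10 libraries lay above all libraries of the other two days, by less than the size for a call in either direction (day 10 against day 7, Log2FC 0.81, SE 0.09).

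Outside the 5 classes, Col7a1, the anchoring fibril collagen of skin, fell from 87.4 and 79.1 CPM to 4.98 and 4.51 (Log2FC -3.87, SE 0.09, adjusted p = 9.6e-23, limma). Col15a1, a basement membrane multiplexin that osteoblasts express, rose and dipped. It stood at 1.45 and 1.76 CPM on day 1, 78.3 and 82.7 on day 7, 25.8 and 23.6 on day 10, and 77.8 and 73.0 on day 14 (day 14 against day 1, Log2FC 4.88, SE 0.07). The related multiplexin Col18a1, the source of endostatin, was between 7.16 and 13.0 CPM in all libraries and was not called.

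The day 7 libraries already differed from those of day 1. Day 7 against day 1, a comparison that uses the same day 1 libraries, called 5 of 30 members higher and 11 lower (4.49% and 4.62% of all genes, 9.11% in either direction). Col22a1 had a Log2FC of 5.63 at day 7 and 6.19 at day 14, Col15a1 of 4.97 and 4.88, Col13a1 of 4.12 and 5.45, and Col24a1 of 3.34 and 4.80. Col7a1 had -3.64 and -3.87, Col6a5 -3.53 and -3.66, and Col3a1 -2.70 and -3.57. Day 10 against day 7 called 0 members higher and 2 lower, beside 1.43% and 0.786% of all genes (2.22% in either direction): Col27a1 (Log2FC -1.12, SE 0.11, adjusted p = 2.6e-09, limma) and Col15a1 (Log2FC -1.67, SE 0.07, adjusted p = 8e-16). The Col27a1 call was lost without day 7 replicate 1, at a Log2FC of -0.99. Day 14 against day 10 called 1 member higher, Col15a1 (Log2FC 1.57, SE 0.07, adjusted p = 1.2e-15), and 0 lower, beside 2.09% and 0.872% of all genes (2.96% in either direction). At an unadjusted p under 0.05 by limma these 2 steps had 7 and 11 members in the directions with a count of 0. The share of all genes at that threshold is not given here, so these 2 numbers cannot be read as particular to collagens. On whole reads recovered from the CPM values, edgeR called 0 and 0 members in these directions. In the other directions edgeR on these reads called 3 members lower from day 7 to day 10 and 4 higher from day 10 to day 14. Over all 12725 genes edgeR also called more than limma in each of these directions. From day 10 to day 14 it called 457 genes higher, against 266 by limma.

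**Figure D4:**
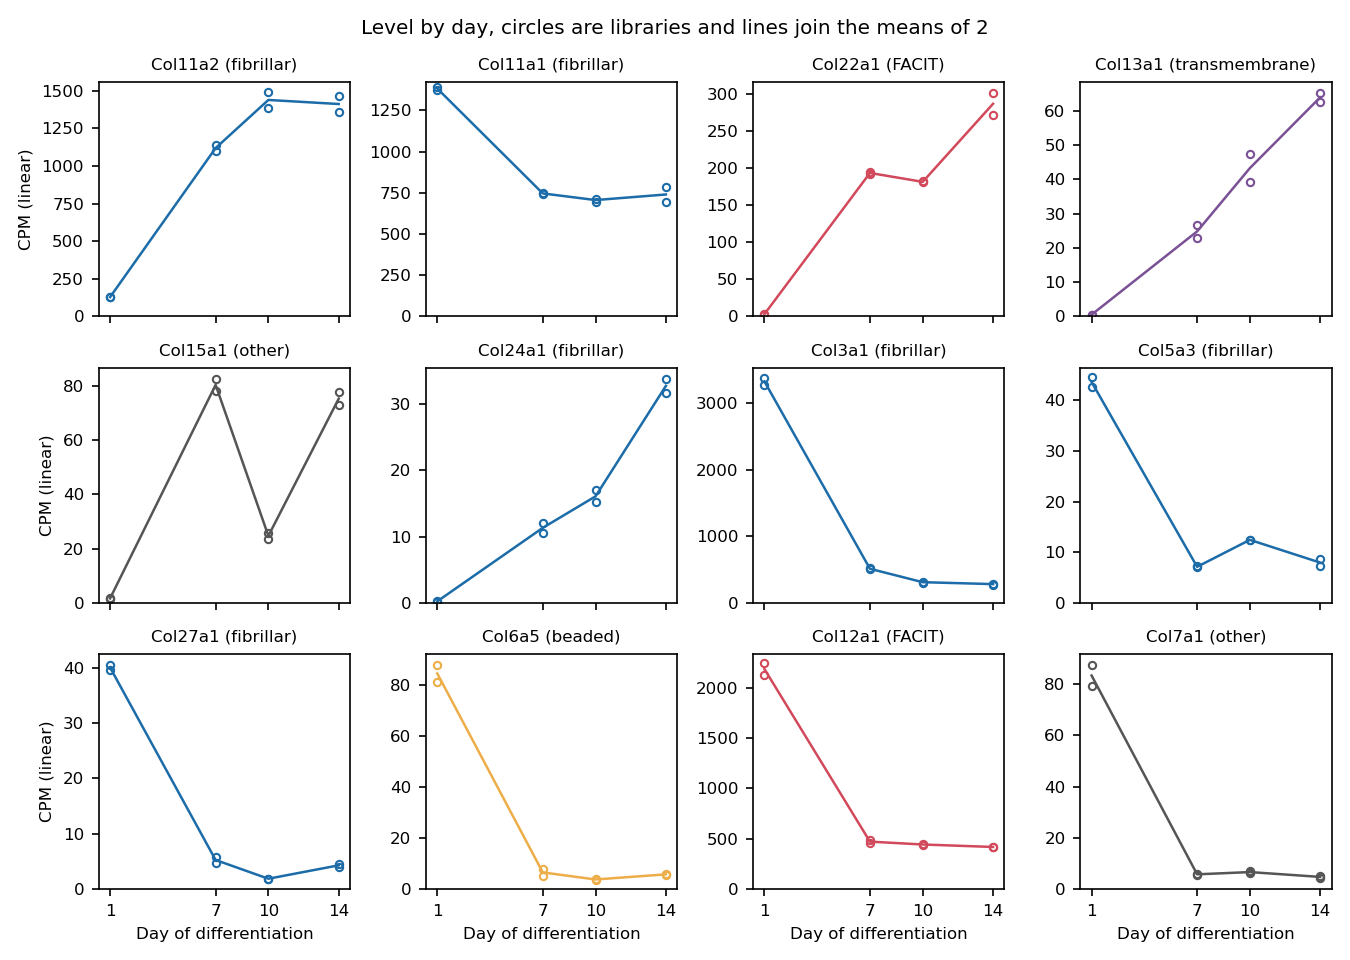
CPM on a linear axis from 0 for 12 collagen chain genes on days 1, 7, 10 and 14, with circles for the 2 libraries of a day and lines through their means. The falls lie mostly between day 1 and day 7, Col15a1 drops to 25.8 and 23.6 CPM on day 10 and returns to 77.8 and 73.0 on day 14, and Col24a1 and Col13a1 climb at every step.

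Between CD61 high and CD61 low cells, 12 of the 27 members tested were called higher and 4 lower by edgeR. Over all 12077 genes tested 4.79% were called higher, 4.38% lower and 9.17% in either direction. The median Log2FC of the tested members was 0.95, beside 0.00 for all genes. Of the 11 fibrillar chains 8 were higher and 2 lower (median 1.18). Of the 4 FACIT chains tested 1 was higher (median 0.71), of the 3 network chains 1 was lower, and of the 4 type VI chains 2 were higher (median 0.35). Of the 2 transmembrane chains 1 was higher, and of the 3 other chains 1 was lower. These counts depend on the scaling and on the method. With library size alone, which puts the median of all genes at -0.29, 5 members were higher and 5 lower. Of all 12045 genes tested with that scaling, 316 were higher and 966 lower. With limma on log2(TPM + 1), which changes the test, the unit and the scaling together, 4 were higher and 4 lower. Of all 12077 genes tested that way, 247 were higher and 701 lower. Library size alone ended the calls of Col5a2, Col11a1, Col24a1, Col27a1, Col20a1, Col6a3 and Col13a1, at a Log2FC of 0.77 to 0.97. Limma on TPM values ended the same 7 and those of Col2a1 and Col18a1, at a Log2FC of 0.40 to 0.92 for the higher 8 and -1.29 for Col18a1 (adjusted p = 0.0107 with Benjamini-Hochberg adjustment). The values below are CPM scaled by TMM factors, which were 1.10 to 1.13 for CD61 low and 0.895 to 0.909 for CD61 high libraries.

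Both type I chains were higher in CD61 high cells. Col1a1 stood at 18243, 15667 and 19081 in the CD61 low libraries and 45025, 43364 and 45967 in the CD61 high libraries, a 2.54-fold difference (Log2FC 1.34, SE 0.09, adjusted p = 7.4e-07 by edgeR with Benjamini-Hochberg adjustment). Col1a2 stood at 11235, 9955 and 12182 against 29225, 26709 and 30158 (Log2FC 1.37, SE 0.10, adjusted p = 8.1e-07). The ratio of the 2 chains per length was 1.39 ± 0.04 in CD61 low and 1.39 ± 0.05 in CD61 high cells (SD, n = 3), and the groups overlapped.

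Type III and type V again split. Col3a1 stood at 90.3, 82.4 and 89.7 in CD61 low and 19.5, 24.0 and 23.2 in CD61 high libraries, 3.94-fold lower (Log2FC -1.98, SE 0.09, adjusted p = 9.1e-08, edgeR). Its neighbor Col5a2 stood at 1626, 1553 and 1830 against 4065, 3410 and 3887 (Log2FC 1.18, SE 0.09, adjusted p = 2e-06), so that these adjacent genes differed in opposite directions. Col5a1 stood at 1202, 1071 and 1389 against 2543, 2102 and 2435, with no overlap but short of the size for a call (Log2FC 0.95, SE 0.11). Col5a3 showed the largest difference of the family, at 10.4, 10.5 and 13.9 against 1.17, 1.21 and 1.12, 9.93-fold lower in CD61 high cells (Log2FC -3.30, SE 0.20, adjusted p = 3.3e-07, edgeR). Its CD61 high values came from 19 to 21 estimated counts, and its Log2FC ran from -3.60 to -1.87 over the alternatives.

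Both type XI chains were higher in CD61 high cells, to unequal extents. Col11a2 stood at 337, 324 and 411 in CD61 low and 1663, 1345 and 1690 in CD61 high libraries (Log2FC 2.13, SE 0.12, adjusted p = 2e-07, edgeR). Col11a1 stood at 277, 299 and 335 against 702, 559.6 and 657 (Log2FC 1.08, SE 0.10, adjusted p = 7.1e-06). The ratio of Col11a2 to Col11a1 per length was 1.77 ± 0.11 in CD61 low and 3.81 ± 0.17 in CD61 high cells, with no overlap. Of the minor fibrillar chains, Col24a1 stood at 2.54, 2.63 and 3.91 against 7.27, 6.51 and 6.76 (Log2FC 1.18, SE 0.20), and Col27a1 at 1.53, 1.31 and 1.90 against 4.28, 4.03 and 3.12 (Log2FC 1.27, SE 0.24). The Col27a1 values came from 28 to 39 estimated counts in CD61 low and 53 to 73 in CD61 high libraries. Col2a1, at 0.526, 0.704 and 0.439 against 1.99, 1.78 and 2.24, was called at low counts (Log2FC 1.83, SE 0.30, adjusted p = 0.00045, edgeR), from 9 to 15 estimated counts in CD61 low and 31 to 38 in CD61 high libraries.

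Of the FACIT chains, Col20a1 stood at 17.9, 17.4 and 17.3 against 41.1, 40.4 and 39.1 (Log2FC 1.196, SE 0.08, adjusted p = 8.1e-07, edgeR), with little spread within either group. Col22a1 stood at 47.9, 44.5 and 65.0 against 110.4, 88.3 and 109 (Log2FC 0.97, SE 0.15), just under the size for a call. Col16a1 was lower, at 59.5, 66.4 and 72.0 against 36.0, 32.9 and 36.6 (Log2FC -0.91, SE 0.09), and was likewise not called. Of its counts 59.5% fell on transcripts annotated as protein coding. Col12a1, at 335, 335 and 446 against 639, 428 and 471, overlapped between groups (Log2FC 0.46, SE 0.17, adjusted p = 0.049, edgeR).

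Of the network chains, Col8a1 stood at 56.6, 84.5 and 89.3 in CD61 low and 31.4, 36.1 and 31.9 in CD61 high libraries (Log2FC -1.21, SE 0.16, adjusted p = 0.00024, edgeR). Col8a2 stood at 81.9, 92.9 and 83.9 against 102, 116 and 102 (Log2FC 0.31, SE 0.08), and the ratio of Col8a1 to Col8a2 per length was 0.735 ± 0.146 against 0.252 ± 0.013. Col4a5, at 42.6, 44.01 and 42.4 against 43.5, 35.5 and 34.2, overlapped between groups.

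The type VI chains separated. Col6a3 stood at 1179, 1046 and 1507 in CD61 low and 3395, 2597 and 2942 in CD61 high libraries (Log2FC 1.26, SE 0.14, adjusted p = 5.8e-05, edgeR). Col6a1 stood at 622, 616 and 603 against 415, 436 and 396 (Log2FC -0.56, SE 0.07, adjusted p = 5.9e-05), and Col6a2 at 266, 258 and 264 against 172, 196 and 172 (Log2FC -0.55, SE 0.07, adjusted p = 0.0001). These were not calls, but for neither gene did the groups overlap. The ratio of Col6a1 to Col6a3 per length was 1.00 ± 0.24 in CD61 low and 0.292 ± 0.068 in CD61 high cells, that of Col6a2 to Col6a3 0.430 ± 0.097 and 0.128 ± 0.036, and that of Col6a1 to Col6a2 2.33 ± 0.04 and 2.30 ± 0.11. The 2 ratios to Col6a3 did not overlap between groups and the ratio of Col6a1 to Col6a2 did. Col6a5 stood at 2.25, 1.92 and 3.08 against 4.99, 7.83 and 8.18 (Log2FC 1.53, SE 0.25, adjusted p = 0.00037, edgeR), from 41 to 63 estimated counts against 85.4 to 139.

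Of the transmembrane chains, Col13a1 stood at 5.36, 6.15 and 6.64 against 13.4, 9.90 and 15.6 (Log2FC 1.10, SE 0.18, adjusted p = 0.00036, edgeR), and beside library size alone and limma on TPM values its call was lost without CD61 high replicate 3 (Log2FC 0.94). Col23a1 stood at 3.01, 3.94 and 5.32 against 8.21, 6.22 and 9.06 (Log2FC 0.94, SE 0.22). Outside the 5 classes, Col18a1 stood at 7.80, 10.0 and 9.28 against 4.46, 4.66 and 4.24 (Log2FC -1.02, SE 0.16, adjusted p = 0.00026), and beside limma on TPM values its call was lost with a transcript length offset (Log2FC -1.45, adjusted p = 0.018, edgeR), without CD61 low replicate 2 (Log2FC -0.94) and without CD61 high replicate 3 (Log2FC -0.99). Col15a1 had 21.6, 18.0 and 25.3 against 17.1, 17.2 and 12.5 (Log2FC -0.47, SE 0.15), and Col7a1 4.02, 4.55 and 5.27 against 3.11, 2.76 and 3.00 (Log2FC -0.64, SE 0.19), neither a call.

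Set side by side, the 2 comparisons come from separate libraries. Of the 27 members tested in both, 7 were called in both, beside 593 of the 11445 genes tested in both. Col11a2, Col24a1 and Col13a1 were higher on day 14 and in CD61 high cells, and Col3a1 and Col5a3 were lower in both. Col27a1 and Col6a5 were lower on day 14 (Log2FC -2.96 and -3.66) and higher in CD61 high cells (Log2FC 1.27 and 1.53). The sort calls of Col24a1, Col13a1 and Col27a1 were among those lost with library size alone or limma on TPM values, and those of Col11a2, Col3a1, Col5a3 and Col6a5 were kept. Over all genes called in both comparisons, 567 of 593 (95.6%) had the same direction. Called or not, 16 of the 27 members tested in both (59.3%) had the same sign, beside 69.4% of all genes tested in both. Another 7 members, both type I chains among them, were called higher in CD61 high cells and not called over days, and 2, Col8a1 and Col18a1, were called lower there and not over days. Of the members called lower on day 14, 6 were tested and not called in the sort, and of those called higher the same held for Col22a1 and Col15a1. Col5a1, Col4a5 and Col23a1 were called in neither.

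**Figure D5:**
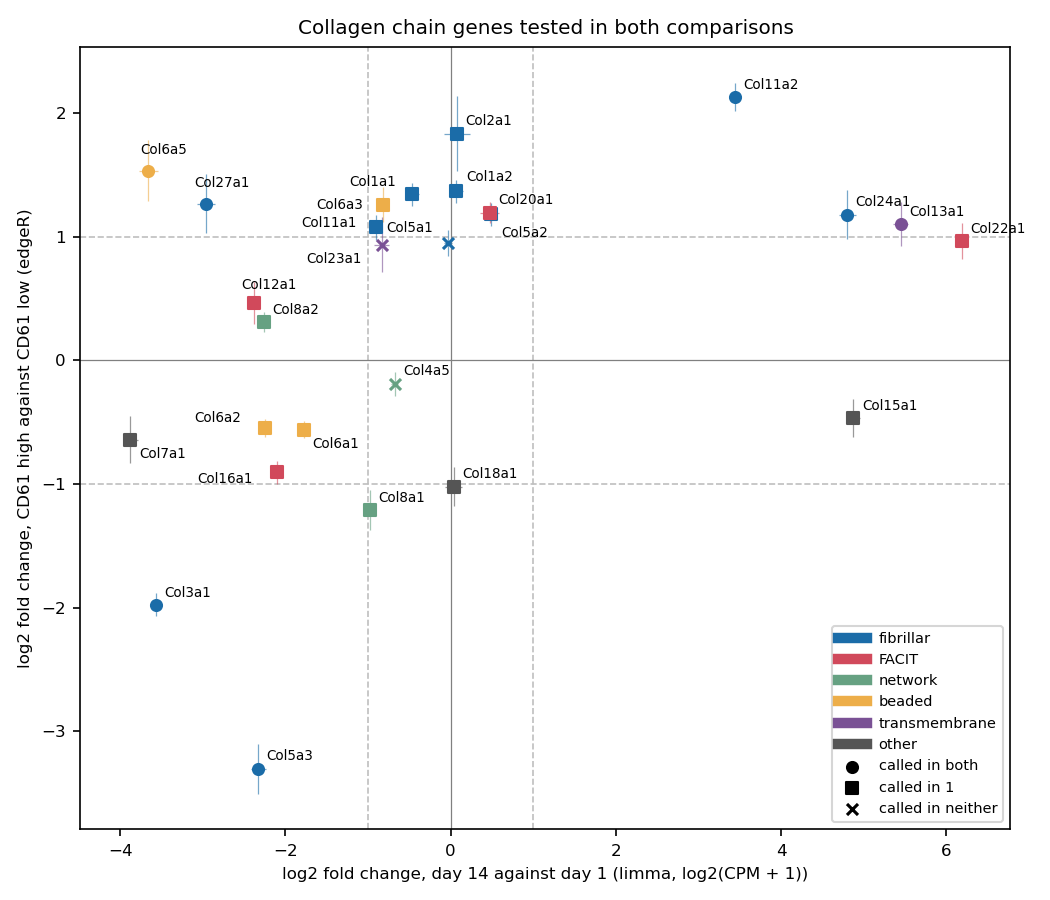
Log2FC of day 14 against day 1 (limma on log2(CPM + 1)) on the x axis and of CD61 high against CD61 low (edgeR) on the y axis for the 27 members tested in both, colored by class, with standard errors and dashed lines at 1 and -1. Col27a1 and Col6a5 lie in the upper left quadrant, Col3a1 and Col5a3 in the lower left, and the type I, II and XI chains above 0 on the y axis.

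Enzymes and chaperones that modify, fold, trim and cross-link collagen formed a list of 34 genes. On day 14 against day 1, 6 of the 30 tested were higher and 3 lower, beside 7.51% and 5.9% of all genes (median Log2FC -0.10, beside -0.03 for all genes). P3h2, a prolyl 3-hydroxylase, went from 5.61 and 5.33 CPM to 153 and 154 (Log2FC 4.58, SE 0.05), and Loxl4, a lysyl oxidase that cross-links fibrils, from 64.1 and 63.0 to 1525 and 1493 (Log2FC 4.55, SE 0.04). The prolyl 4-hydroxylase subunits P4ha2 and P4ha1 had a Log2FC of 2.81 and 2.37, while the third subunit, P4ha3, went from 26.0 and 24.7 to 3.56 and 3.60 CPM (Log2FC -2.53, SE 0.11). The lysyl oxidase Loxl1 and the procollagen proteinase Tll1 were also lower (Log2FC -2.24 and -2.01).

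In CD61 high against CD61 low cells, 7 of 29 of these genes were higher and 3 lower, beside 4.79% and 4.38% of all genes (median Log2FC 0.64, beside 0.00 for all genes). P3h2 (42.2, 37.3 and 53.1 against 207, 177 and 208, Log2FC 2.16) and Loxl4 (317, 280.1 and 375 against 1121, 826 and 983, Log2FC 1.59) were again higher, as was P4ha2 (Log2FC 1.19). Bmp1, the proteinase that removes the C-terminal propeptide of fibrillar procollagens, stood at 234, 225 and 262 against 617, 650.5 and 659 (Log2FC 1.42, SE 0.08) and was not called over days (Log2FC -0.80). Loxl1, the procollagen proteinase Adamts14 and P4ha3 were lower (Log2FC -1.196, -1.18 and -1.13). With library size alone 6 of these genes were called in either direction, and with limma on TPM values 4. Of all genes, library size alone called 316 higher and 966 lower of 12045. Limma on TPM values called 247 higher and 701 lower of 12077. The P4ha2 call was lost under both (Log2FC 0.89 and 0.88). The calls of Adamts14 and P4ha3 were lost with limma on TPM values (Log2FC -0.64 and -0.92) and without CD61 low replicate 2 (Log2FC -1.13 and -1.14), and that of P4ha3 also with a transcript length offset (Log2FC -0.97), without CD61 low replicate 3 (Log2FC -0.9995) and without CD61 high replicate 1 (Log2FC -0.96).

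Of 12 collagen receptor genes, 9 were tested in each comparison, with a median Log2FC of -0.77 over days and 0.30 in the sort. Over days, where 13.4% of all genes were called, Itga10 was higher (Log2FC 1.27) and Itga1, Adgrg6 and Itga11 lower (Log2FC -2.07, -1.96 and -1.73). In the sort, where 9.17% of all genes were called, Itga11, Itga10 and Itgb1 were higher (Log2FC 1.66, 1.45 and 1.11) and Adgrg6 and Itga1 lower (Log2FC -3.51 and -1.65). The Itgb1 call was lost with library size alone (Log2FC 0.81) and with limma on TPM values (Log2FC 0.79). Adgrg6, an adhesion receptor that binds collagen IV, stood at 23.6, 30.5 and 31.4 in CD61 low and 2.52, 2.76 and 2.18 in CD61 high libraries. Itga11, the fibrillar collagen receptor chain of mesenchymal cells, differed in direction between the 2 comparisons, with 277 and 283 CPM on day 1, 89.97 and 77.1 on day 14, 64.4, 53.4 and 66.7 in CD61 low and 205, 185 and 192 in CD61 high libraries.

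Summed markers of the osteoblast to osteocyte lineage differed between the same groups. The 11 listed genes summed to 952 to 961 CPM on day 1, 8745 to 8863 on day 7, 5838 to 6170 on day 10 and 7066 to 7108 on day 14, and to 2023 to 2543 in CD61 low and 6862 to 7019 in CD61 high libraries. Ibsp and Alpl made up most of these sums. Over days 7 of the 11 were called higher and 0 lower, and in the sort 8 and 0. Of all genes 7.51% were called higher over days and 4.79% in the sort. Pdpn went the other way, from 28.4 and 27.98 CPM on day 1 to 19.4 and 19.2 on day 14, and from 15.2 to 16.2 in CD61 low to 9.53 to 12.1 in CD61 high libraries. The osteocyte genes Mepe and Fgf23 were below 1 CPM in every library, Sost on days 1 and 7, and Dmp1 in CD61 low libraries.

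The 6 chondrocyte markers summed to 102 to 104.4 CPM on day 1 and 167 to 186 on day 14, and to 46.5 to 60.1 in CD61 low and 111 to 129 in CD61 high libraries. Over days 1 of them was called higher and 2 lower, and in the sort 2 were called higher, beside 13.4% and 9.17% of all genes in either direction. Hapln1 went from 12.1 and 11.6 CPM on day 1 to 65.5 and 64.97 on day 14, and Acan from 60.1 and 59.9 to 93.5 and 74.5. Matn3 went from 8.56 and 7.68 CPM to 0.408 and 0.581 and Comp from 4.40 and 4.96 to 1.54 and 1.31, while Snorc was below 1 CPM throughout. In the sort Sox9, which made up most of the sum, stood at 40.4, 32.3 and 37.4 in CD61 low and 101.1, 94.4 and 88.1 in CD61 high libraries. Comp stood at 1.44, 1.27 and 1.27 against 4.17, 4.26 and 3.88. Acan overlapped between groups (6.22, 4.41 and 6.69 against 9.97, 5.99 and 6.06). Hapln1 differed little (11.9, 7.88 and 10.5 against 13.4, 11.9 and 13.1), and Matn3 was below 1 CPM in every sorted library. The 4 tendon markers went from 59.5 to 64.9 CPM on day 1 to 32.7 in both day 14 libraries, and from 20.6 to 25.1 in CD61 low to 15.1 to 16.4 in CD61 high libraries, with Tnmd and Thbs4 below 1 CPM. All 4 endothelial markers were below 1 CPM in every library. Of the 6 blood cell markers all but Cd68 were, and the list summed to 2.35 to 2.69 CPM on day 1, 3.93 to 3.997 on day 14, 12.8 to 15.8 in CD61 low and 8.24 to 8.86 in CD61 high libraries. Of the 5 adipocyte markers all but Cebpa were below 1 CPM, and the list summed to 10.5 to 11.1 CPM on day 1, 17.5 to 19.3 on day 14, 17.5 to 20.6 in CD61 low and 13.8 to 14.6 in CD61 high libraries. Of the 4 skeletal muscle markers all but Acta1 were below 1 CPM. Acta1 went from 2.07 and 2.16 CPM on day 1 to 22.97 and 25.001 on day 14, and from 17.1 to 18.4 in CD61 low to 29.5 to 41.97 in CD61 high libraries. The part of these markers in the collagen results was not tested.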

How the data were processed

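Members and gene lists were chosen with earlier results of these data known. For differentiation the authors deposited CPM per gene, made with STAR and HTSeq. For the sort they deposited Salmon estimated counts and TPM per transcript. Their processing notes name GRCm39. The versions of STAR, HTSeq and Salmon, and whether counting used strand, are not given in the sources used here. CPM values were within 0.01 of whole reads in 100% of cases.

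CPM were compared as log2(CPM + 1) with limma 3.58.1 (trend, all 8 libraries, at least 1 library above 1 CPM). Estimated counts were summed per gene through GENCODE M39, rounded and compared with edgeR 4.0.16 (quasi-likelihood, TMM, at least 5 normalized counts in all 6 libraries). P-values were Benjamini-Hochberg adjusted over all genes tested. Both fits recovered known changes larger than the size for a call when tested on simulated data. That simulation used a single fixed spread for all genes. It did not cover changes near the size for a call, genes at very low levels or the spread of the real replicates. Calls needed an adjusted p below 0.01 and a Log2FC past 1. Levels per length used TPM, or CPM per kilobase of mean transcript length (the authors' gene length for 14 members below 0.2 TPM), with the authors' gene length for all members as an alternative added after seeing the data. Every member was accounted for, and of each companion list up to 4 called genes were named each way. Alternatives were DESeq2 1.42.0, edgeR on recovered reads, other scalings, filters, pseudocounts and length or GC corrections, the replicate block, and each library left out.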

Additional observations from a re-analysis of the deposited data

How the results depend on the processing

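Every collagen call of day 14 and of day 7 against day 1 (16 each) was kept under every alternative in which the gene was tested. Of the 16 sort calls 7 were kept under every alternative and 9 were lost under at least 1, and no call reversed. Collagen genes higher in CD61 high cells numbered 12, 11 to 15 with a library left out, but 5 with library size alone and 4 with limma on TPM. Assembly genes called in the sort numbered 10, but 6 and 4 with these settings. Over all genes 579 were higher, 497 to 585 with a library left out, but 316 with library size alone and 247 with limma on TPM. Over all genes 529 were lower, but 966 and 701 with these 2 settings. The median of all genes was -0.29 and -0.28 there, and limma on TPM changed the test, the unit and the scaling together. Lower calls from day 7 to day 10 were 2, 3 with a pseudocount of 0.1 or with edgeR on recovered reads, and 1 to 2 with a library left out. Over all genes the lower calls from day 7 to day 10 also rose with that pseudocount and with edgeR. The 1 higher call from day 10 to day 14 became 3 with a pseudocount of 0.1, 4 with edgeR on recovered reads, 2 with TMM scaling, 2 with GC and length correction, 2 with that correction and the replicate block, and 1 to 2 with a library left out. Over all genes the higher calls of this step were 266, 425 with a pseudocount of 0.1 and 457 with edgeR on recovered reads. TMM scaling gave 299, and GC and length correction 268 with or without the block. With a library left out they were 255 to 299. The cause was not tested.

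Signs turned, from day 1 to day 14, only for genes that were not called. Col2a1 was at -0.0419 with quantile normalization, at -0.0285 with GC and length correction with or without the replicate block, and at -0.22 to 0.375 with a library left out. Col18a1 was at -0.0188 with quantile normalization and -0.0613 with GC and length correction with or without the block. Col5a1 was at 0.00932 with TMM scaling and at -0.107 to 0.0545 with a library left out, and Col1a2 at -0.0251 to 0.164 with a library left out. Same-numbered libraries correlated at 0.01 to 0.09 in the differentiation experiment and at -0.32, 0.22 and -0.06 in the sort, so the numbers were not taken to pair libraries. Differently numbered CD61 low and CD61 high libraries correlated at -0.41 to 0.47. A block on the replicate number cannot test a pairing under other numbers. With 2 libraries a day, the differently numbered correlations are the same values with the sign turned. With the replicate block the collagen counts stayed at 12 higher and 4 lower in the sort and at 5 higher and 11 lower from day 1 to day 14. The 14 members below both filters were not tested.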
